A study of Mus musculus with 2 samples.

Results

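The genes described here were 10 genes that mark the contractile type of skeletal muscle fibers, 5 of slow fibers (*Myh7*, *Myl2*, *Myl3*, *Tnni1* and *Tnnt1*) and 5 of fast fibers (*Myh1*, *Myh2*, *Myh4*, *Tnnt3* and *Atp2a1*). They were chosen by symbol, and all 10 were found among the 19430 genes counted in 2 sections. Each section held the distal tibia fracture callus of a control mouse (*Nf1* +/flox without *Postn*-cre) beside that of an Nf1Postn littermate (*Postn*-cre;*Nf1* flox/-), in which Cre from the periostin promoter deletes *Nf1* in the periosteum. The female mice were 8 weeks old, the tibia carried an intramedullary pin, and it was collected on day 10 after fracture and decalcified in 14% EDTA for about 3 days. Probe pairs for each gene were captured on a grid of barcoded spots, so each unique molecular identifier (UMI) stands for 1 captured probe pair of 1 spot, and the cells under a spot can be several and of different types. The sample labels number the sections as biological replicates 1 and 2, while the methods describe a control and an Nf1Postn callus placed in 1 paraffin block and do not say whether the sections hold different mice. Each section was therefore given apart. With at most 2 mice per genotype no test between genotypes was run, and the 95% intervals given are exact (Poisson for levels, binomial for shares) and hold counting error alone.

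Skeletal muscle fibers differ in the isoforms of their contractile proteins. The myosin heavy chain sets the speed at which a fiber shortens, and adult fibers are typed by it as slow type I (*Myh7*) or as the increasingly fast types IIa (*Myh2*), IIx (*Myh1*) and IIb (*Myh4*). Muscles of the mouse lower leg are mostly fast, with the soleus as the best known slow muscle, and developing or regenerating fibers pass through the embryonic (*Myh3*) and neonatal (*Myh8*) heavy chains and carry slow troponin isoforms before the adult set is in place.

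In the deposited coordinates (mm39), *Myh2* (ENSMUSG00000033196, chr11:67061853-67088344), *Myh1* (ENSMUSG00000056328, chr11:67090878-67115402) and *Myh4* (ENSMUSG00000057003, chr11:67128855-67151273) lie side by side on chromosome 11, whereas *Myh7* (ENSMUSG00000053093, chr14:55208141-55232084) lies on chromosome 14. The remaining slow genes are *Myl2* (ENSMUSG00000013936, chr5:122239014-122251536), *Myl3* (ENSMUSG00000059741, chr9:110570929-110598867), *Tnni1* (ENSMUSG00000026418, chr1:135707172-135738728) and *Tnnt1* (ENSMUSG00000064179, chr7:4507569-4519382). The fast genes *Tnnt3* (ENSMUSG00000061723, chr7:142052573-142069747) and *Atp2a1* (ENSMUSG00000030730, chr7:126045030-126062281) share chromosome 7 with *Tnnt1*. The heavy chain genes are near-identical in places, which bears on how a probe can tell them apart. Over their aligned coding sequences, *Myh1* and *Myh2* were identical at 91.0% of bases and *Myh1* and *Myh4* at 90.1%, and 10.99% of the 50-base stretches of *Myh1* occurred unchanged in *Myh4*. *Myh7* was identical to *Myh4* at 77.3% of bases, but at 91.7% to its cardiac neighbor *Myh6*, with which 23.9% of its 50-base stretches were shared. The following 50 bases show a stretch of coding exon in which each of the other adult heavy chains differs from *Myh4* (capitals, bases that differ from *Myh4*; GRCm39, with *Myh7* from exon 30 at chr14:55216108-55216157 on the minus strand, *Myh1* from exon 28 at chr11:67108291-67108340, *Myh2* from exon 28 at chr11:67082175-67082224 and *Myh4* from exon 27 at chr11:67145285-67145334, these 3 on the plus strand).
Myh7: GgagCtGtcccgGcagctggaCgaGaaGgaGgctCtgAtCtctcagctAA
Myh1: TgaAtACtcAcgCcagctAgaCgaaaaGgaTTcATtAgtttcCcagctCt
Myh2: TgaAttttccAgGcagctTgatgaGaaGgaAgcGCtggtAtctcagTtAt
Myh4: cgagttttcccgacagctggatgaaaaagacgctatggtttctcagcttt
In this stretch *Myh1* differed from *Myh4* at 16 of 50 bases, and *Myh7* and *Myh2* at 13 each. The probe sequences were not used here, so the split of UMIs among *Myh1*, *Myh2* and *Myh4*, and between *Myh7* and *Myh6*, is uncertain to the extent that a probe lies in a shared stretch. *Myh6* itself was counted with 18 UMIs (4.66 CPM) in all muscle spots.

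Muscle was located with 4 other genes, *Myot*, *Ckmt2*, *Scn4a* and *Asb2*, and a spot was taken as muscle where their summed level was at least 1000 CPM, that is, 1000 UMIs per 1000000 UMIs of that spot. Of the 6375 spots with a genotype, 1226 were muscle spots. The rest are called other spots or spots outside muscle, which means only that they missed the threshold, and they can hold muscle RNA too. In section 1, the muscle spots were 75 of 1700 control spots (4.41%, 3.49 to 5.50) and 334 of 1341 Nf1Postn spots (24.9%, 22.6 to 27.3). In section 2, they were 99 of 1778 control spots (5.57%, 4.55 to 6.74) and 718 of 1556 Nf1Postn spots (46.1%, 43.6 to 48.7). More spots thus passed the rule in the Nf1Postn callus in both sections, and the amount of muscle left on each tibia and the genotype cannot be told apart. The rule is a share of a spot's UMIs, and a median spot had 7053 UMIs in control and 2030 in Nf1Postn in section 1, and 5718.5 and 3239.75 in section 2. Over all spots, *Myh4* had 48182 UMIs in control and 49000 in Nf1Postn in section 1, and 51054 and 175089 in section 2. In section 1, *Myh1* had 19039 and 27690 UMIs, and the 5 fast genes together had 126945 and 144659. These are counts and not levels, since all genes together had 13562253.5 UMIs in control and 3462224.5 in Nf1Postn in section 1. The summed UMIs of muscle spots were 329484 and 617022 in section 1 and 315607 and 2600390 in section 2 for control and Nf1Postn, so section 2 Nf1Postn holds most of the counts. A median muscle spot had 4577, 1707.25, 1649 and 3246 UMIs in section 1 control, section 1 Nf1Postn, section 2 control and section 2 Nf1Postn, and 5.85% to 20.2% of the muscle spots of a group passed the rule on 1 UMI. The same grid barcodes serve both sections, and 2711 grid positions lay under tissue in both. Just below the threshold, 226 spots between 800 and 1000 CPM held *Myh4* at 26177 CPM and *Myh7* at 56.6 CPM, and just above it, 175 spots between 1000 and 1200 CPM held 34812 and 60.5 CPM. Markers of skeletal muscle that the rule did not use (*Acta1*, *Ckm*, *Des*, *Ttn*, *Neb* and *Actn2*) summed to between 41900 and 72636 CPM in the muscle spots of the 4 groups and to between 4108 and 24281 CPM in other spots, and the cardiac markers *Myh6* and *Nppa* together to at most 9.51 CPM in muscle spots.

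Fast fiber genes were counted at high levels in the muscle spots of every group. Levels are pooled CPM, that is, the UMIs of a gene summed over the muscle spots of a section and genotype over all their UMIs, and since probes differ between genes, levels of different genes are not ranked. *Myh4*, the IIb heavy chain, was counted at 42236 CPM in section 1 control, 35994 in section 1 Nf1Postn, 19667 in section 2 control and 47408 in section 2 Nf1Postn, and it had a UMI in at least 99.7% of muscle spots of every group. *Myh1*, the IIx heavy chain, was counted at 14125, 15722, 16029 and 13212 CPM in the same order. The pooled levels of *Myh1* therefore lay close together, whereas *Myh4* in section 2 control lay well below the other 3 groups. By spot, *Myh1* was low in section 2 control too. A median muscle spot there held it at 6137 CPM, against 10685 CPM in section 1 control and 11336 CPM in section 1 Nf1Postn. *Tnnt3*, the fast isoform of troponin T, which anchors the troponin complex to the thin filament, followed the order of *Myh4* in part, at 26790, 31036, 17199 and 33186 CPM. *Atp2a1*, the calcium pump that returns calcium to the sarcoplasmic reticulum of fast fibers, was counted at 20751, 15346, 12905 and 20276 CPM. Section 2 control was the lowest group for *Myh4*, *Tnnt3* and *Atp2a1*. *Myh2*, the IIa heavy chain of fast oxidative fibers, was counted at 1172 CPM (1058 to 1294), 1238 (1152 to 1329), 1191 (1074 to 1318) and 1390 (1345 to 1436), with overlapping intervals for all groups but section 2 Nf1Postn. The sum of the 5 fast genes was 105074, 99337, 66992 and 115472 CPM.

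Slow fiber genes were counted far less often and in fewer spots. *Myh7*, the heavy chain of type I fibers, had 47 UMIs (143 CPM, 105 to 190) in section 1 control, 54 (87.5 CPM, 65.7 to 114) in section 1 Nf1Postn, 42 (133 CPM, 95.9 to 180) in section 2 control and 656 (252 CPM, 233 to 272) in section 2 Nf1Postn. It was highest in section 2 Nf1Postn, and the intervals of the other groups overlapped for all pairs. *Myh7* had a UMI in 12% of control and 11.98% of Nf1Postn muscle spots in section 1, in 17.2% in section 2 control and in 32.3% in section 2 Nf1Postn. *Tnnt1*, the slow isoform of troponin T, was counted at 143 CPM (105 to 190), 131 (104 to 163), 266 (212 to 330) and 233 (214 to 252) in section 1 control, section 1 Nf1Postn, section 2 control and section 2 Nf1Postn, thus higher in section 2 in both genotypes, by a log2 ratio of 0.90 (0.37 to 1.45) in control and 0.83 (0.49 to 1.18) in Nf1Postn. *Tnni1*, the slow isoform of the inhibitory troponin I, was counted at 51.6 CPM (30.1 to 82.6), 48.6 (32.8 to 69.4), 181 (137 to 234) and 68.1 (58.4 to 78.9), and so stood apart in section 2 control, the group in which *Myh7* did not. *Myl2*, the regulatory light chain of slow fibers, had 11, 27, 5 and 187 UMIs (33.4, 43.8, 15.8 and 71.9 CPM) and *Myl3*, their essential light chain, had 4, 6, 2 and 76 UMIs (12.1, 9.72, 6.34 and 29.2 CPM). Both light chains were highest in section 2 Nf1Postn, as *Myh7* was, but with so few UMIs elsewhere that differences among the other 3 groups were not detectable at this depth. The sum of the 5 slow genes was 382, 321, 602 and 654 CPM.

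**Figure D1:**
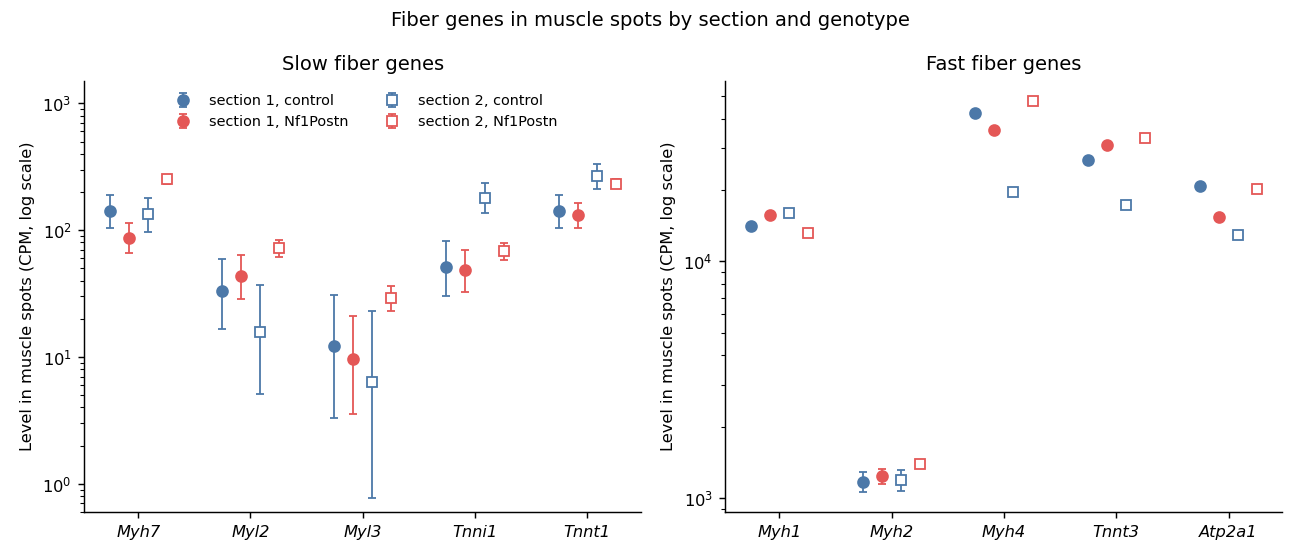
Pooled level (CPM, log scale) of the 5 slow genes (left) and the 5 fast genes (right) in muscle spots, with blue for control, red for Nf1Postn, filled circles for section 1 and open squares for section 2, and bars for exact Poisson 95% intervals (hidden by the symbol where narrow). *Myh7*, *Myl2* and *Myl3* were highest in section 2 Nf1Postn, *Tnni1* was highest in section 2 control at 181 CPM, and *Myh4* was lowest there at 19667 CPM.

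Slow genes were also more unevenly spread over muscle spots than fast genes. The coefficient of variation of the level over the 1226 muscle spots, after the part due to counting was taken off, was 2.71 for *Myh7*, 2.15 for *Myl3*, 2.01 for *Myl2*, 1.91 for *Tnni1* and 1.54 for *Tnnt1*. It was 0.84 for *Myh2*, 0.71 for *Myh1*, 0.40 for *Myh4*, 0.39 for *Atp2a1* and 0.27 for *Tnnt3*, all over the pooled spots. Within the groups the slow genes with few UMIs did not all stand above the fast genes, and for *Myl3* the coefficient was 0 in both groups of section 1 and 0.59 in section 2 control, where that of *Myh2* was 0.98 and that of *Myh1* 0.80. A single spot could hold much of what was counted of *Myh7*: the richest spot of a group held 25 of 47 UMIs in section 1 control, 8 of 54 in section 1 Nf1Postn, 17 of 42 in section 2 control and 35 of 656 in section 2 Nf1Postn.

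The comparison of the calluses asked whether the fiber genes of the surrounding muscle differed between the genotypes. Cre deletes *Nf1* in the periosteum, so the muscle fibers are not taken to have lost it. Nf1Postn mice also carry a null *Nf1* allele that the control mice lack, and the effects of this allele and of the periosteal deletion cannot be told apart. In bulk sums over spots, fewer fibers of a type and less RNA per fiber cannot be told apart. None of the 10 genes differed 2-fold in the same direction in both sections, where 0.552% of the 3078 genes with at least 50 UMIs in the muscle spots of each section did. *Myl2*, *Myl3* and *Tnni1* did not reach that count, and of the 7 fiber genes that did, 4 (*Myh7*, *Myh1*, *Myh4* and *Atp2a1*) had opposite signs in the sections, against 49.9% of all 3078 genes. The log2 ratio of Nf1Postn over control for *Myh4* was -0.23 (-0.26 to -0.20) in section 1 and 1.27 (1.23 to 1.31) in section 2, and that for *Atp2a1* was -0.44 (-0.48 to -0.39) and 0.65 (0.61 to 0.70). For *Myh1* it was 0.15 (0.10 to 0.21) and -0.28 (-0.32 to -0.24). These intervals do not overlap between the sections. With TMM (trimmed mean of M values) factors in place of total UMIs, which move the median of all 3078 genes from -0.17 to 0.26 in section 2 and leave it at 0.04 in section 1, *Myh1* had the same sign in both sections, at 0.16 and 0.16, and *Tnnt1* opposite signs, at -0.11 and 0.24. *Myh7* (-0.70 and 1.36), *Myh4* (-0.23 and 1.70) and *Atp2a1* (-0.43 and 1.09) still had opposite signs. *Tnnt3* was higher in Nf1Postn in both sections, by 0.21 and 0.95, and *Myh2* by 0.08 (-0.10 to 0.26) and 0.22 (0.07 to 0.38). *Tnnt1* differed by less than counting error in either section, at -0.12 (-0.66 to 0.43) and -0.19 (-0.53 to 0.15). *Tnni1* was lower in Nf1Postn in section 2 alone, at -0.09 (-0.99 to 0.87) and -1.41 (-1.85 to -0.95), while *Myl2* was higher there, at 0.39 (-0.67 to 1.55) and 2.18 (0.93 to 3.82).

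The ratio of *Myh7* turned on single spots. It was -0.70 (-1.30 to -0.11) in section 1 and 0.92 (0.47 to 1.41) in section 2. Without the richest spot of each group, a view chosen after the values were seen, *Myh7* was counted at 67.5 CPM (22 UMIs) in section 1 control and 74.8 CPM (46 UMIs) in section 1 Nf1Postn, a log2 ratio of 0.15 (-0.62 to 0.95). In section 2, it was then counted at 80.7 CPM (25 UMIs) and 239 CPM (621 UMIs), a ratio of 1.57 (0.99 to 2.21). The negative sign in section 1 therefore rested on 1 control spot. The fast sum had ratios of -0.08 and 0.79 and the slow sum of -0.25 (-0.58 to 0.08) and 0.12 (-0.10 to 0.34), and the median over the 10 genes was -0.10 in section 1 and 0.79 in section 2, beside 0.04 and -0.17 over all 3078 genes.

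Markers of other tissues moved with the section 2 values. In the muscle spots of section 2 control, *Col1a1*, the main collagen of fibroblasts and bone, was counted at 18393 CPM, against 8856, 8063 and 6749 CPM in section 1 control, section 1 Nf1Postn and section 2 Nf1Postn, and the cartilage collagen *Col2a1* at 5938 CPM, against 2167, 3619 and 1487 CPM. The sums over the 4 fibroblast, 2 cartilage and 2 bone markers were each highest in section 2 control as well, at 23840, 6232 and 1359 CPM, and ranged over the other groups from 8884 to 11995, from 1612 to 3771 and from 336 to 789 CPM. The skeletal muscle markers were lowest there at 41900 CPM, and the 4 markers of satellite cells and regenerating muscle in the tables were highest at 304 CPM, against 81.9 to 170 CPM. The part of these tissues in the ratios was not tested.

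**Figure D2:**
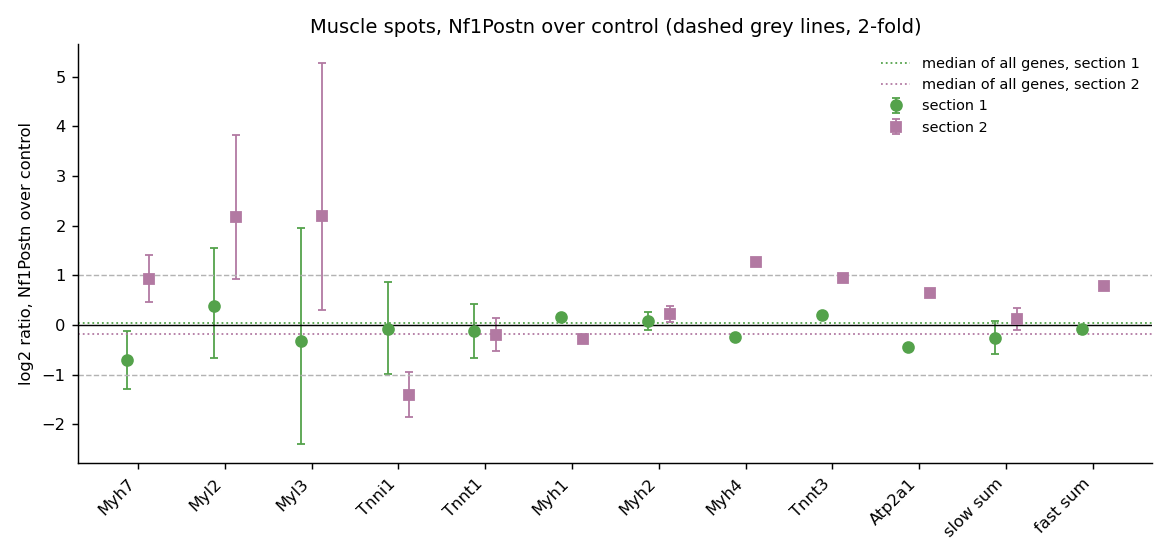
Log2 ratio of the pooled level in muscle spots, Nf1Postn over control, for each fiber gene and for the slow and fast sums, with green circles for section 1 and purple squares for section 2; bars are exact 95% counting intervals, dotted lines the medians of 3078 genes (0.04 and -0.17) and dashed lines a 2-fold difference. On this scale signs differ between sections for *Myh7*, *Myh1*, *Myh4* and *Atp2a1*, whereas with TMM factors *Myh1* is at 0.16 in both and *Tnnt1* at -0.11 and 0.24, and no gene passes 2-fold the same way in both.

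A share among the 4 adult heavy chains is not diluted by UMIs of other tissues in the same spot. *Myh4* held 73.2% of adult heavy chain UMIs in section 1 control, 67.9% in section 1 Nf1Postn, 53.1% in section 2 control and 76.1% in section 2 Nf1Postn. *Myh1* held 24.5%, 29.6%, 43.3% and 21.2%, *Myh2* 2.03%, 2.33%, 3.22% and 2.23%, and *Myh7* 0.247% (0.182 to 0.329), 0.165% (0.124 to 0.215), 0.359% (0.259 to 0.485) and 0.405% (0.375 to 0.437). The IIb and IIx heavy chains thus gave nearly all of these UMIs in every group. Since the shares set UMIs of different probes against each other, they describe the counts and do not rank the levels of the chains. Of the 1156 muscle spots with at least 20 adult heavy chain UMIs, *Myh4* had the most UMIs in 1092 and *Myh1* in 64, and *Myh2* or *Myh7* in none. Pooled over the groups, the 64 spots with *Myh1* ahead were low in *Myh7* (24.6 CPM, against 226 CPM in spots with *Myh4* ahead) and high in *Tnni1* (209 against 60.8 CPM), *Myh3* (123 against 22.4 CPM) and *Myh8* (218 against 80.1 CPM). In the order above, the groups held 7, 31, 11 and 15 of the spots with *Myh1* ahead and 58, 276, 67 and 691 of those with *Myh4* ahead. The pooled values therefore mix groups in unlike parts, and values within each group were not taken.

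The high *Myh1* share of section 2 control lay in muscle far from the Nf1Postn callus. Control muscle spots fell apart by their distance to the Nf1Postn callus, and were divided at 20 grid steps after their positions were seen. In section 2, the 66 spots up to 16 steps from an Nf1Postn spot held *Myh1* at 22.3% of adult heavy chain UMIs (20.6 to 24.1), with *Myh1* and *Myh4* at 5328 and 17885 CPM. The 33 spots at 22 to 41 steps held *Myh1* at 48.2% (47.2 to 49.2), with *Myh1* and *Myh4* at 20442 and 20402 CPM. These distant spots also held *Tnni1* at 233 CPM (52 UMIs), *Tnnt1* at 354 CPM and *Myh3* at 188 CPM (42 UMIs), whereas the near spots held 54.3 CPM (5 UMIs), 54.3 CPM and 10.9 CPM (1 UMI). In section 1, the 63 distant control spots had a *Myh1* share of 24.6% (24.0 to 25.3) and the 12 near spots of 18.7% (15.3 to 22.5), so the distant control muscle differed between the sections. The way the calluses were outlined is not given in the sources used here, and the genotype of the near spots rests on the deposited label. Their *Myh1* share in section 2 lay close to the 21.2% of section 2 Nf1Postn, and the near spots are most of the section 2 control muscle spots, so the section 2 ratios were also taken with the near or the distant control spots alone, a view chosen after the values were seen. With the distant spots alone, the log2 ratio of Nf1Postn over control was -0.63 (-0.67 to -0.58) for *Myh1*, -0.60 (-0.94 to -0.25) for *Tnnt1*, -1.77 (-2.23 to -1.30) for *Tnni1*, 1.22 (1.17 to 1.26) for *Myh4*, 0.69 (0.20 to 1.22) for *Myh7* and -0.04 (-0.20 to 0.13) for *Myh2*. With the near spots alone, it was 1.31 (1.18 to 1.44) for *Myh1*, 2.10 (0.87 to 3.73) for *Tnnt1*, 0.33 (-0.92 to 1.97) for *Tnni1*, 1.41 (1.34 to 1.48) for *Myh4*, 1.73 (0.68 to 3.05) for *Myh7* and 1.17 (0.79 to 1.57) for *Myh2*. The signs of *Myh1* and *Tnnt1* in section 2 therefore turned with the control spots used. For *Tnni1* and *Myh2* a turn is not clear, since the interval of *Tnni1* with the near spots and that of *Myh2* with the distant spots include 0. The signs of *Myh4* and *Myh7* did not turn. Neither did those of *Tnnt3* (0.81 with distant and 1.36 with near spots), *Atp2a1* (0.54 and 0.97) and *Myl2* (2.01 and 2.73, from 4 and 1 control UMIs). *Col1a1* was high on both sides in section 2 control, at 16938 CPM in the distant and 21922 CPM in the near spots.

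The heavy chain shares were also clustered in space, that of *Myh1* more than that of *Myh7*. Where muscle spots that touch on the grid within a genotype were joined, 5 patches of at least 20 spots were found, none of them in section 1 control. The share of *Myh7* among adult heavy chains was 0.138% (0.0900 to 0.202) in a patch of 177 spots and 0.802% (0.490 to 1.24) in a patch of 33 spots, both in section 1 Nf1Postn. The smaller patch also held *Myl2* at 238 CPM, against 49.0 CPM in the larger, and *Tnnt1* at 347 against 150 CPM, while *Myh4* was at 35588 and 44555 CPM. Within 1 callus and section, these muscle patches thus differed in the *Myh7* share by more than counting error. The smaller patch held 20 *Myh7* UMIs, and *Myh7* varied between the muscle spots of this group beyond counting, with a coefficient of 2.42, which the intervals do not hold. The 3 patches of section 2 had *Myh7* shares of 0.412% (636 Nf1Postn spots), 0.570% (20 Nf1Postn spots) and 0.421% (21 control spots), with overlapping intervals. Where spots up to 2 steps apart were joined instead, the lowest and highest shares were 0.0235% and 0.407%, so the patch with the high share was no longer apart. Across the 830 muscle spots with at least 3 muscle neighbors and 20 adult heavy chain UMIs, the *Myh1* share of a spot correlated with the mean of its neighbors at Pearson's r = 0.513 and that of *Myh7* at 0.194, with 0.211 in section 2 Nf1Postn (610 spots) and -0.018 in section 1 Nf1Postn (182 spots). These values describe spots of the same sections that share library and depth.

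**Figure D3:**
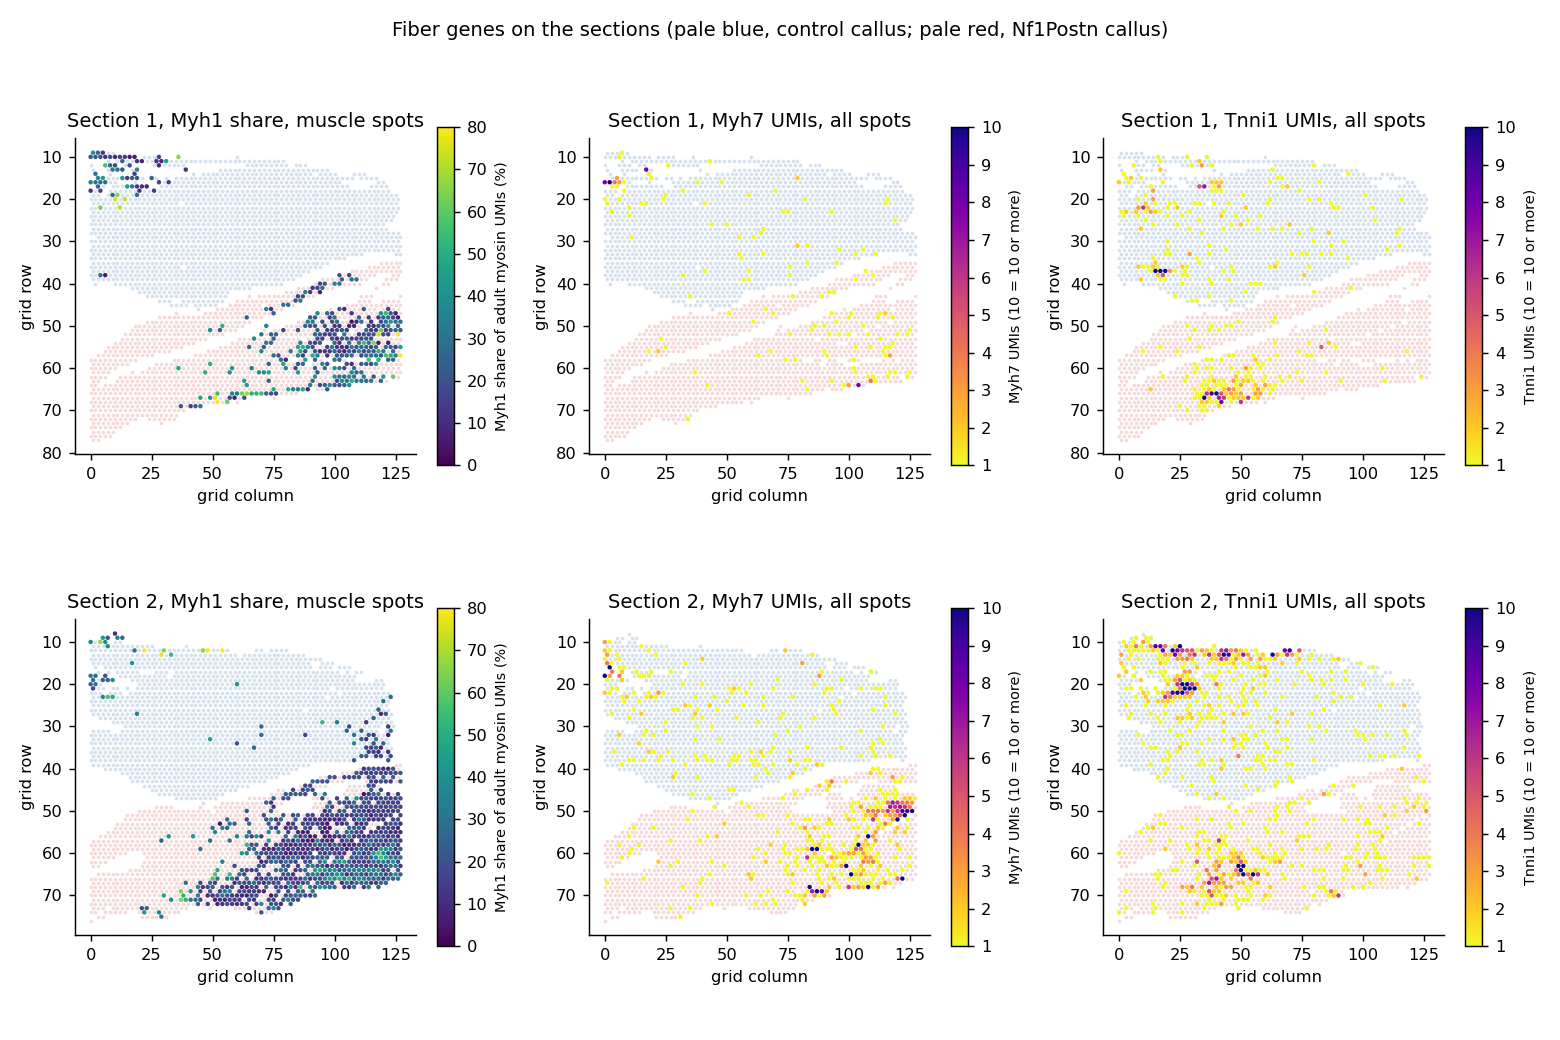
Spots under tissue by grid column and row in section 1 (top) and section 2 (bottom), pale blue for the control and pale red for the Nf1Postn callus; colors give the *Myh1* share of adult heavy chain UMIs in muscle spots (left) and the UMIs of *Myh7* (middle) and *Tnni1* (right) in all spots. Most muscle spots lay on the Nf1Postn side of section 2 (718 spots), *Myh7* was concentrated among them, and *Tnni1* lay in groups of spots elsewhere, mostly not muscle spots by the rule.

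Spots with at least 5 UMIs of *Myh7*, a threshold set after the values were seen, were few and lay together. There were 36 of them, 33 in muscle, and they held 34.3% of all *Myh7* UMIs. By group they numbered 3, 1, 2 and 30 in section 1 control, section 1 Nf1Postn, section 2 control and section 2 Nf1Postn, the group that also held most of the muscle UMIs. Of the 36 spots, 24 (66.7%) touched another, against 1.96% of all spots that touched one, and the largest joined group had 14 spots. The 1.96% is over all spots, most of them outside muscle. Muscle spots of section 2 Nf1Postn were themselves joined, with 636 in 1 patch, and a share over these alone was not taken. The genes that did not choose these spots give the comparison. Those with at least 50 UMIs in the muscle spots of each section numbered 3077, *Tnnt1* and *Atp2a2* among them. *Myl2*, *Myl3*, *Tnni1* and *Tnnc1* were below that count. Of the 3077 genes, 0.325% were 2-fold or more higher in the 33 muscle spots than in the other 1193. In them, *Myl3* was counted at 170 against 16.0 CPM, a log2 ratio of 3.41 (2.71 to 4.07), *Myl2* at 298 against 48.5 CPM, 2.62 (2.14 to 3.08), and *Tnnt1* at 807 against 184 CPM, 2.13 (1.86 to 2.40). *Tnnc1*, the troponin C of slow and cardiac muscle, was counted at 275 against 44.7 CPM (2.62), and *Atp2a2*, the slow fiber calcium pump, at 608 against 271 CPM (1.17). *Tnni1* was higher too, at 170 against 68.3 CPM, a log2 ratio of 1.31 (0.71 to 1.87). *Tnnc1* and *Atp2a2* were named after their values were seen. *Atp2a2* was not particular to muscle, at 286 CPM in all muscle spots and 275 CPM in other spots. Of a hand-written list of other slow fiber genes, 4 reached 50 UMIs in the muscle spots of each section, and only *Atp2a2* of these was 2-fold higher. *Myoz2* was at 129 against 68.3 CPM (0.91), *Mybpc1* at 1111 against 939 CPM (0.24) and *Csrp3* at 152 against 153 CPM. Fast genes differed little there, with log2 ratios of 0.54 for *Myh2*, 0.40 for *Atp2a1*, 0.16 for *Myh4*, 0.14 for *Tnnt3* and -0.19 for *Myh1*. Fast heavy chains were thus still counted at high levels in these spots, with *Myh4* at 47651 and *Myh1* at 12271 CPM. Within section 2 Nf1Postn alone (29 against 689 spots), the ratios were 3.20 for *Myl3*, 2.49 for *Myl2*, 1.96 for *Tnnt1* and 1.38 for *Tnni1*. In the other groups (4 against 504 spots), the intervals included 0 for *Myl3* (2.83, -2.60 to 5.61), *Myl2* (1.93, -1.16 to 3.87) and *Tnni1* (1.64, -0.26 to 3.04). They lay above 0 for *Tnnt1* (2.86, 2.07 to 3.56), *Tnnc1* (4.01, 2.59 to 5.20) and *Atp2a2* (2.46, 1.80 to 3.06). The higher light chains thus rest on section 2 Nf1Postn. *Myh3* had 2 and *Myh8* 3 UMIs in all 33 spots.

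Spots rich in *Tnni1* mostly lay in other places. Spots with at least 5 *Tnni1* UMIs numbered 70, of which 62 were not muscle spots by the rule, and the 70 held 35.4% of all *Tnni1* UMIs. By group they numbered 7, 11, 37 and 15, most of them in section 2 control, and 58 of the 70 (82.9%) touched another, against 3.73% of all spots. None was also rich in *Myh7*. With 36 and 70 rich spots among 6375, hardly any overlap would be due by chance either, so this alone does not set the genes apart. Between the 62 spots and the other 5087 spots outside muscle, 4.55% of the 11715 genes with at least 50 UMIs there in each section were 2-fold or more higher. Among the genes that did not choose the spots, *Tnnt2*, the cardiac and embryonic isoform of troponin T, was counted at 434 against 25.1 CPM, a log2 ratio of 4.11, the embryonic light chain *Myl4* at 884 against 67.5 CPM (3.71), the embryonic heavy chain *Myh3* at 174 against 14.6 CPM (3.58), the neonatal heavy chain *Myh8* at 407 against 35.4 CPM (3.52) and *Myog*, a transcription factor of muscle differentiation, at 162 against 15.0 CPM (3.43). *Tnnt1* was higher by 3.70 (394 against 30.3 CPM) and *Tnnc1* by 3.37. Among the fast genes, *Myh1* was higher by 2.77 (18311 against 2688 CPM), *Myh2* by 1.93, *Atp2a1* by 1.65, *Tnnt3* by 1.47 and *Myh4* by 0.62 (7628 against 4980 CPM). Other muscle genes were higher as well, *Mb* by 2.25, *Acta1* by 1.98 (12417 against 3148 CPM), *Pvalb* by 1.57 and *Ckm* by 1.15 (8210 against 3688 CPM). The 62 spots thus held muscle RNA though they missed the rule, and the part of muscle content in the ratios was not tested. *Myh7* was at 15.9 against 13.1 CPM, 0.28 (-0.69 to 1.10). In section 1, these ratios were 4.70 for *Tnnt2*, 4.53 for *Myh3* and 3.47 for *Tnnt1* over 18 spots, and in section 2 they were 3.62, 2.97 and 3.30 over 44 spots. *Tnnt1* and *Tnnc1* were therefore higher in these spots along with the embryonic genes, while *Myh7* was not detectably higher. *Tnni1* was high there by the choice of spots. *Tnnt1* and *Tnnc1* were also higher in the *Myh7*-rich muscle spots, by 2.13 and 2.62, so they do not set the *Tnni1* spots apart from those. The 62 spots were deeper, with a median of 11095.8 UMIs against 4820.5, and the part of depth in the choice by UMIs was not tested. *Tnnt1* was rich in 64 spots, of which 16 were shared with the *Myh7* spots (25% of the *Tnnt1* and 44.4% of the *Myh7* spots) and 23 with the *Tnni1* spots (35.9% and 32.9%).

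**Figure D4:**
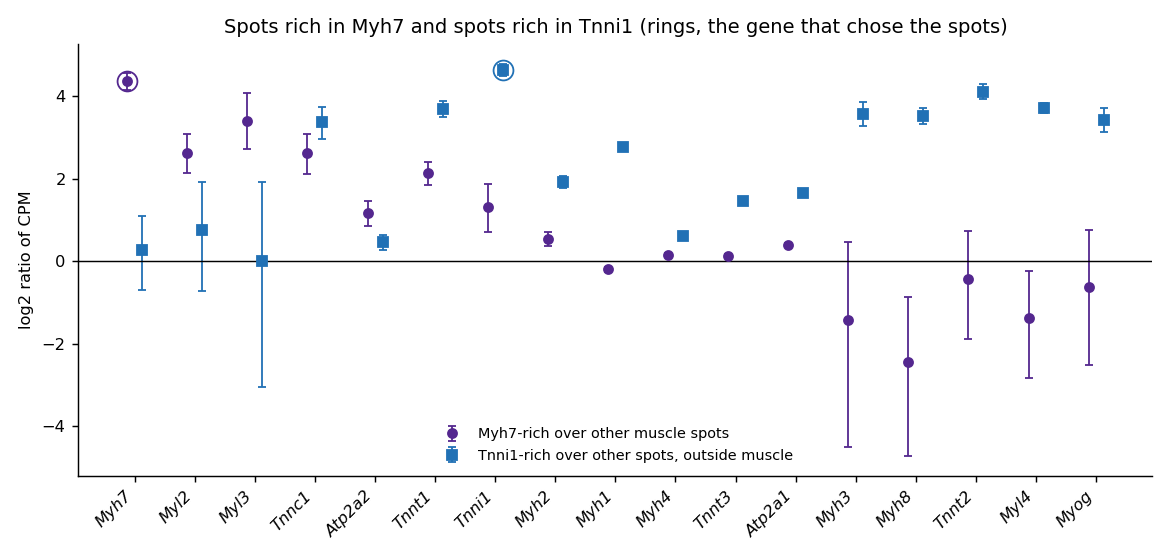
Log2 ratio of the level of each gene in *Myh7*-rich over other muscle spots (purple circles, 33 against 1193 spots) and in *Tnni1*-rich over other spots outside muscle (blue squares, 62 against 5087 spots), with exact 95% counting intervals; rings mark the gene that chose the spots. *Myl2*, *Myl3*, *Tnnc1* and *Tnnt1* were higher in the first, and *Tnnt1*, *Tnnc1*, *Myh1* and the embryonic genes in the second. Of the 33 *Myh7*-rich muscle spots, 29 lay in section 2 Nf1Postn.

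When spots were classed by the embryonic heavy chains, *Tnni1* went with them, and *Tnnt1* did so in section 2 control alone. In muscle spots with a UMI of *Myh3* or *Myh8* (218 spots), *Myh7* was counted at 101 CPM and *Tnni1* at 128 CPM, and in the 1008 without, at 246 and 52.2 CPM. *Tnnt1* was at 223 against 207 CPM. By group it was at 80.2 against 154 and 105 against 137 CPM in section 1 control and Nf1Postn. In section 2 it was at 383 against 130 and 212 against 241 CPM. *Myh7* differed little in section 2 control, at 124 against 144 CPM from 21 UMIs each. The share of *Myh1* among adult heavy chains was 21.3% (21.1 to 21.5) in muscle spots with none of their UMIs, 27.6% (27.2 to 28.0) in those with 1 or 2 and 38.6% (37.9 to 39.3) in those with 3 or more, and outside muscle it was 31.2%, 40.1% and 51.4%. The order held outside muscle in each of the 4 groups, with 27.9%, 33.7% and 37.0% in section 1 control, 33.3%, 45.4% and 49.5% in section 1 Nf1Postn, 37.3%, 49.5% and 69.9% in section 2 control, and 24.8%, 28.9% and 37.1% in section 2 Nf1Postn. In muscle spots it held in 3 of the 4 groups, with 1 spot in the last class of section 1 control, and in section 1 Nf1Postn the values were 26.4%, 46.5% and 42.3%. A deeper spot has more chance of a UMI of *Myh3* or *Myh8*, and the threshold of 3 UMIs was set after the values were seen.

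Fiber genes were counted across the calluses, and most of them thinned out with distance from muscle. In muscle over other spots, the pooled log2 ratio was 3.97 for *Myh7*, 3.64 for *Myl2*, 3.12 for *Myl3* and 2.44 for *Tnnt1*, and it was 3.22 for *Myh2*, 3.09 for *Myh4*, 2.93 for *Atp2a1*, 2.85 for *Tnnt3* and 2.18 for *Myh1*. Pooling mixes groups with unlike amounts of muscle. In section 1 control, section 1 Nf1Postn, section 2 control and section 2 Nf1Postn, *Myh7* was at 4.84, 2.92, 2.92 and 3.01, *Myh4* at 4.03, 1.93, 2.37 and 1.63 and *Myh1* at 3.70, 1.31, 2.19 and 1.02. *Myl3* was at 1.23 (-1.88 to 3.20) in section 2 control. These spots were chosen by other muscle genes, so the ratios are a description. Of the fiber genes, 7 had at least 50 UMIs in the muscle spots of each section (*Myh7*, *Tnnt1* and the 5 fast genes). All 7 were 2-fold or more higher in muscle spots in all 4 groups, as were 9.45% of the 3078 genes. This minimum is taken in muscle spots and so favors genes that are high there. *Tnni1* missed it, with 47 UMIs in the muscle spots of section 1. It was the exception, at a pooled ratio of 0.49, with 1.35 and 1.41 in control and -0.73 and -0.49 in Nf1Postn in sections 1 and 2. Only 14.8% of *Tnni1* UMIs lay in muscle spots, which held 10.99% of all UMIs, compared with 65.9% for *Myh7*, 60.7% for *Myl2*, 53.6% for *Myh2*, 51.2% for *Myh4* and 35.9% for *Myh1*. By group these shares ran from 5.96% to 35.3% for *Tnni1*, from 16.8% to 86.1% for *Myh7* and from 12.2% to 70.4% for *Myh4*. The muscle spots of a group held 2.43% to 43.5% of its UMIs. In other spots of both sections, *Myh4* was still counted at 5044 CPM and *Myh1* at 3064 CPM.

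By grid steps to the nearest muscle spot of the same callus, *Myh4* in both sections of the control fell off from 31194 CPM in muscle to 14258 at 1 step, 7741 at 2 steps, 3669 at 3 to 5, 2385 at 6 to 10 and 1223 CPM over 10 steps away. *Myh7* was at 138, 28.6, 25.7, 15.5, 9.03 and 5.28 CPM. Its level in control muscle leaned on the richest spot of each section. Without that spot it was 67.5 CPM in section 1 and 80.7 CPM in section 2, against 37.1 and 24.3 CPM at 1 step. Whether *Myh7* fell by more than *Myh4* within the first step is therefore not clear. *Tnni1* was at 115, 119, 100, 50.4, 58.2 and 9.39 CPM. Between muscle and 1 step away it went from 51.6 to 72.1 CPM in section 1 and from 181 to 142 CPM in section 2, with overlapping intervals in each section. In Nf1Postn, *Myh4* was at 45219, 26004, 9617, 5739 and 2837 CPM and *Myh7* at 221, 47.8, 12.8, 7.45 and 11.9 CPM up to 6 to 10 steps, while *Tnni1* was at 64.3 CPM in muscle, 119 at 1 step, 133 at 2 steps, 64.9 at 3 to 5 and 23.8 CPM at 6 to 10 steps. The highest level of *Tnni1* thus lay 1 or 2 steps from the muscle spots in the Nf1Postn callus of both sections, in spots that missed the threshold. The *Myh1* share of adult heavy chains, pooled over all 4 groups, was 23.9% in muscle, 33.3% at 1 step, 43.2% at 2 steps, 39.8% at 3 to 5, 41.2% at 6 to 10 and 30.2% beyond. In each group it was higher at 1 and 2 steps than in muscle. Farther out the groups differed. In the same bins it was 24.5%, 27.9%, 29.4%, 31.5%, 28.7% and 28.8% in section 1 control, and 43.3%, 52.2%, 51.6%, 43.0%, 45.9% and 34.2% in section 2 control. Up to 6 to 10 steps it was 29.6%, 35.1%, 48.2%, 43.3% and 39.1% in section 1 Nf1Postn and 21.2%, 26.3%, 36.5%, 35.3% and 35.2% in section 2 Nf1Postn.

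**Figure D5:**
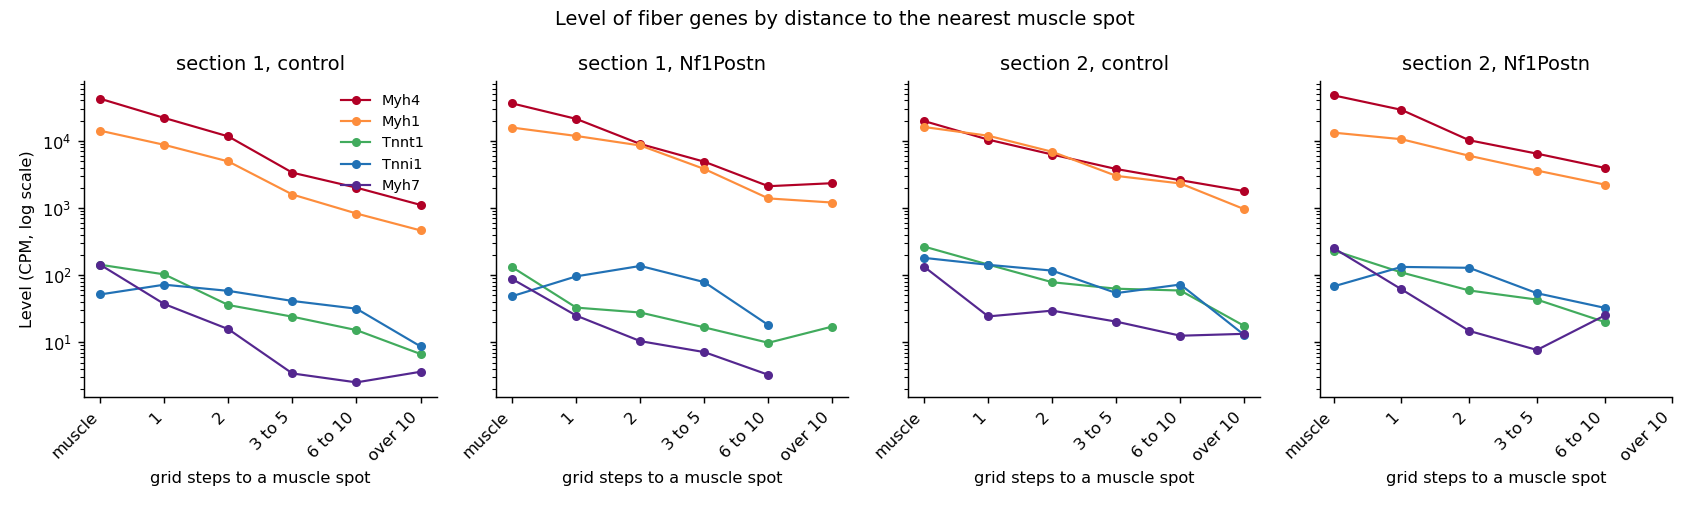
Level (CPM, log scale) of *Myh4*, *Myh1*, *Tnnt1*, *Tnni1* and *Myh7* by grid steps to the nearest muscle spot of the same callus, 1 panel per section and genotype; levels of 0 and bins without spots are not drawn, and the last bin of section 1 Nf1Postn holds 21 spots. *Tnni1* peaked outside the muscle spots in both Nf1Postn panels, while *Myh4* and *Myh7* were highest in muscle spots in all 4.

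Over the 1226 muscle spots, levels as log2(CPM + 1) centered per section and genotype correlated at a median Pearson's r of 0.297 (0.188 to 0.545) over the 10 pairs of fast genes, 0.206 (0.098 to 0.263) over the 10 pairs of slow genes and 0.084 over the 25 mixed pairs. These values describe spots that share library and depth, and after each spot was thinned to 1000 UMIs (1048 spots) they were 0.257, 0.098 and 0.026. Among the 1010 other genes with at least 500 UMIs in muscle spots, those most like the mean of the fast genes were *Acta1* (r = 0.581), *Ckm* (0.574), *Tnnc2* (0.571), *Pvalb* (0.566) and *Actn3* (0.545), that is, skeletal actin, muscle creatine kinase, the fast troponin C, the calcium buffer parvalbumin and the fast fiber actinin. Those most like the mean of the slow genes were *Cryab* (0.233), *Fhl1* (0.217), *Idh2* (0.214), *Mybpc1* (0.213) and *Actn2* (0.212), which include a small heat shock protein, a mitochondrial dehydrogenase and the slow myosin-binding protein C, all with weak correlations.

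Other genes of the same programs, from lists written by hand, gave a similar picture. None of the other 11 slow fiber genes, 12 fast fiber genes, 6 embryonic and neonatal genes, 6 oxidative and 6 glycolytic genes in the tables was 2-fold different the same way in both sections, beside the 0.552% of all genes. Of them, 4, 12, 2, 5 and 5 reached 50 UMIs in the muscle spots of each section. Their median log2 ratios of Nf1Postn over control in sections 1 and 2 were 0.01 and 0.41 for slow, -0.18 and 0.67 for fast, 0.21 and -1.02 for embryonic and neonatal, 0.02 and 0.75 for oxidative and -0.19 and 0.65 for glycolytic genes. In section 2 the median of the embryonic and neonatal genes was therefore on the other side of 0 from those of the adult lists. The 2 of them that reached 50 UMIs in the muscle spots of each section were *Myh8*, at -0.08 (-0.61 to 0.50), and *Myl4*, at -0.51. Of the 4 slow genes that did, *Atp2a2* (-0.37) and *Mybpc1* (-0.12) were negative too, and *Myoz2* (0.96) and *Csrp3* (0.41) positive. Of the 43 *Myh3* UMIs in section 2 control muscle, 42 lay in the control spots far from the Nf1Postn callus. Of the genes that reached 50 UMIs, 11 of 12 fast, 5 of 5 oxidative, 4 of 5 glycolytic, 2 of 4 slow and none of 2 embryonic and neonatal genes were 2-fold or more higher in muscle than in other spots in all 4 groups. The minimum is taken in muscle spots and so favors genes that are high there. The largest mean differences between genotypes over the sections were those of *Myh8* (1.53), *Cpt1b* (0.84), which imports fatty acids into mitochondria, and *Ankrd2* (0.81), a stretch-responsive slow fiber gene, on the higher side. On the lower side they were those of *Myh3* (-1.67), *Pln* (-1.04), the inhibitor of the slow calcium pump, with 16 UMIs in all muscle spots, and *Tnnt2* (-0.79). *Myh8* had a ratio of 3.14 in section 1 and -0.08 in section 2, so its mean came from section 1. *Gapdh* had 7 UMIs in all muscle spots and none in the control. Every cell uses it and its probes were not checked here, so its count is not read as expression and no ratio was taken.

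Promoters of slow and fast fiber genes are shown, as the 250 bases before the RefSeq start (GRCm38.p6, a build other than that of the counts). They are *Myh7* at chr14:54994627-54994876 (minus strand), *Tnni1* at chr1:135799171-135799420, *Myh1* at chr11:67199852-67200101 and *Myh4* at chr11:67237562-67237811 (plus strand). Capitals mark matches on either strand to the E-box CANNTG, the MCAT element, spelled CATTCC, the MEF2 site, the CArG box and the TATA sequence, spelled TATAAA, which can lie within a MEF2 match.
Myh7: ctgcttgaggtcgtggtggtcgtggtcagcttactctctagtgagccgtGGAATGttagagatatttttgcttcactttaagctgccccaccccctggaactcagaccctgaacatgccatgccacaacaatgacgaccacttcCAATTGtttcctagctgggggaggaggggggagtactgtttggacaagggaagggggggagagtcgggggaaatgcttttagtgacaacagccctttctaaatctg
Tnni1: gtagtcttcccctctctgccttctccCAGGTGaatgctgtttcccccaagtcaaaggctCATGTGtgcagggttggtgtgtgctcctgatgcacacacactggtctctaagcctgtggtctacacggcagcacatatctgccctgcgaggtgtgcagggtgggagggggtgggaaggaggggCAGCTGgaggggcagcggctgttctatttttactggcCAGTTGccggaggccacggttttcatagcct
Myh1: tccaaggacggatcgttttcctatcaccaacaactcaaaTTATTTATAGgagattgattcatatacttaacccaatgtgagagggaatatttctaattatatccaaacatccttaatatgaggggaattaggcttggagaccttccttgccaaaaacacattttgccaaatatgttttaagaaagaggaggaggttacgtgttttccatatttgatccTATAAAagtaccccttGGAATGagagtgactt
Myh4: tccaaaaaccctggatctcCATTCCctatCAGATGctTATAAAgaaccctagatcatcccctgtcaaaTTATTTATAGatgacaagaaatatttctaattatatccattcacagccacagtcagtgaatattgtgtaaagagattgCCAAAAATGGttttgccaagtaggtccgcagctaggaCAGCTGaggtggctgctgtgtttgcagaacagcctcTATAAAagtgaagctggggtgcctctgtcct
*Myh1* and *Myh4* each held a TATA sequence just before the start, a MEF2 match and an MCAT match, and they shared the stretch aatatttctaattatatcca, which also occurred in *Myh2*. *Tnni1* held 4 E-boxes and no other match, and *Myh7* 1 E-box and 1 MCAT match. Of the 9 fiber genes with a RefSeq promoter entry, 7 held an E-box, 4 MCAT, 3 TATA, 2 a MEF2 match and 2 a CArG match, where 66.0%, 12.6%, 12.97%, 3.01% and 1.40% of 27025 promoters of the same length did. A match describes these letters only.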

How the data were processed

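Spatial transcriptomes (Visium for fixed tissue) of 2 sections were used. For each section the authors deposited raw counts (UMIs) for every gene in every spot. Since 10 rows that merge several Ensembl IDs hold their mean and are not whole, the deposited values were read as estimated counts. The submitters' processing notes name Space Ranger 1.3.0 and mm39. The deposited genotype labels and spot positions were used as they are, and the way the 2 calluses were outlined was not given in the sources used here. The entry without a gene name (6.81e-05% and 3.76e-05% of UMIs) and 5 spots without a genotype were left out.

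Counts were summed over spots and given as CPM, with exact 95% intervals, in Python 3.11.15 (numpy 2.4.6, scipy 1.17.1, pandas 2.3.3). TMM factors came from edgeR 4.0.16 in R 4.3.3 and the heavy chain alignments from MAFFT 7.526, with GENCODE models on GRCm39. A gene was counted as 2-fold different where it had at least 50 UMIs in the muscle spots of each section. Patches were muscle spots joined on the hexagonal grid. The fiber genes, the lists and the views of the data were chosen with earlier results of these data known. Named genes are the 10 fiber genes, the 3 largest mean differences each way among the listed fiber genes, the 5 genes most like the mean of the slow and of the fast genes and the marker lists. The pipeline was tested on simulated data. Alternatives were other muscle rules, depths, scalings, patch sizes and a section left out.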

Additional observations from a re-analysis of the deposited data

How the results depend on the processing

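The calluses were paired by section, and the ratios within a section set its own calluses side by side. With at most 2 mice of each genotype, no paired test was run. For the slow sum in muscle spots, pooled over sections, the log2 ratio of Nf1Postn over control was 0.27. This lies above the ratio of either section (-0.25 and 0.12), since pooling weights the sections unlike in the 2 genotypes. Section 2 held 2600390 of 3217412 muscle UMIs in Nf1Postn and 315607 of 645090 in control. The pooled ratio turned to -0.31 with a muscle threshold of 2000 CPM, was 0.54 as a mean over spots and 0.64 without spots that hold *Myh3* or *Myh8*, and ranged from -0.25 to 0.12 with a section left out. That of the fast sum was 0.38, and -0.081 to 0.79 with a section left out. Single genes also changed sign. *Myh7*, at 0.68, was at -0.73 with the threshold of 2000 CPM and at -0.70 without section 2, and with a section left out *Myl3* ranged from -0.32 to 2.21, *Myh4* from -0.23 to 1.27 and *Atp2a1* from -0.44 to 0.65, each negative without section 2. *Myh1*, at -0.14, was at 0.03 and 0.33 with thresholds of 500 and 2000 CPM, 0.22 as a mean over spots, 0.0084 relative to UMIs of other than muscle genes, 0.11 without *Myh3* or *Myh8* spots, 0.16 in both sections with TMM factors, and -0.28 to 0.15 with a section left out, positive without section 2. The cause was not tested. The share of *Myh7* was 0.290% in control, and 0.923% at 2000 CPM, 0.393% with muscle by *Myot*, *Scn4a* and *Asb2* and 1.42% for slow troponins among troponins. In Nf1Postn it was 0.365%, and 0.840% for troponins, with 0.165% to 0.405% when a section was left out. Muscle spots numbered 434, 48 and 107 in control at 500 CPM, at 2000 CPM and by 3 genes, and 510 in Nf1Postn at 2000 CPM. The lowest share of *Myh7* in a patch was 0 with patches of 10 spots and 0.0235% with spots joined over 2 steps, and the highest was then 0.407%. Median correlations were 0.473 (fast pairs) and 0.142 (mixed pairs) in section 1 control, 0.070 (slow pairs) in section 2 control, and 0.098 (slow) and 0.026 (mixed) after thinning. Genes 2-fold different in both sections numbered 17, and 2103 without a minimum count. Under the alternatives, 42 summary values and 179 values of single genes moved by less than their counting interval, 20 and 50 moved by more without a reversal, and 3 and 11 reversed. Depth limits *Myl2*, *Myl3* and *Tnni1* most.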
